A study of Mus musculus with 10 samples.

Results

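The genes described here make up the bile acid circuit of the small intestine. They are the uptake carrier Slc10a2, the cytosolic binding protein Fabp6, the export carrier subunits Slc51a and Slc51b, the bile acid receptors Nr1h4 (FXR) and Gpbar1 (TGR5), and the FXR targets Nr0b2 (SHP) and Fgf15. They were taken by name from a fixed list of 8 genes, and 7 of the 8 had an array probe set of their own, out of 22180 genes tested. Slc51b was covered only by a probe set that is shared with the gene Rasl12, and it is described by that shared value with no test.

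The arrays came from female mice in which Pcyt1a, the rate-limiting enzyme of phosphatidylcholine synthesis by the CDP-choline route, was deleted in the gut epithelium. The 5 knockout samples, numbered 1 to 5, carried Pcyt1aLoxP/LoxP;VilCreERT2, where VilCreERT2 is a tamoxifen-inducible Cre recombinase driven by the promoter of villin, a gene of the gut epithelium. The 5 control samples, numbered 6 to 10, carried Pcyt1aLoxP/LoxP without the Cre. All mice were 10 to 12 weeks old, received tamoxifen over 5 days and fat-rich food over 4 days. After an overnight fast, 3 cm of mid small intestine (jejunum) was collected. Because both groups had tamoxifen but only the knockouts carried the Cre, an effect of the active recombinase itself and an effect of losing Pcyt1a cannot be told apart. The text for the whole series speaks of re-fed mice where the sample labels say fasted, and the source labels of the controls carry the same words on absent phosphatidylcholine synthesis as those of the knockouts; groups here follow the titles and genotypes. Nothing in the labels says that each array came from a separate mouse, so the tests measure the spread between these samples.

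Bile acids are made from cholesterol in the liver, secreted into the duodenum to dissolve fat, and recovered mostly in the ileum, the last stretch of the small intestine. There Slc10a2 carries them in from the lumen with sodium, Fabp6 binds them inside the enterocyte, and the Slc51a and Slc51b pair releases them toward the portal blood. Inside the enterocyte bile acids activate FXR, which switches on Fabp6, Slc51a, Slc51b, Nr0b2 and Fgf15, and the hormone FGF15 then reaches the liver and lowers the bile acid synthesis enzyme Cyp7a1. Since uptake is strongest in the ileum, low levels of the uptake genes are usual in the jejunum, the stretch sampled here. In intact tissue, fewer cells of a type and less RNA per cell cannot be told apart.

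The promoter of Fabp6 is shown because it carries letters close to the motif that FXR, the receptor of this circuit, binds. It runs 5′ to 3′ on the gene's own strand, from 250 bases before the start to 50 after it, is taken from RefSeq annotation on GRCm38.p6, and has the matched windows in capitals.
Fabp6: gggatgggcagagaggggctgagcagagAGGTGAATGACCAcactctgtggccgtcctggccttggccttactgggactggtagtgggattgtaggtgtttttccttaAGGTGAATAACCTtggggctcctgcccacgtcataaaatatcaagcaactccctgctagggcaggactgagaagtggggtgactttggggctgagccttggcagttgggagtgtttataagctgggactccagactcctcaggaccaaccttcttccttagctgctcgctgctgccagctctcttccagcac
The Fabp6 window lies at chr11:43601513-43601812 on the minus strand, and its 2 capitalised stretches each differ by 2 of 12 letters from the motif that FXR binds as a pair with RXR, which is AGGTCA followed after 1 free base by its reverse complement. These stretches begin 222 and 142 bases before the start of the gene. Of 32851 promoters of this length, 1.14% hold a window within 2 mismatches of that motif on either strand. This motif reads the same on both strands. The best windows of Slc51a and Slc51b had 3 mismatches, a level that 11.4% of promoters reach. Slc10a2, Nr1h4, Gpbar1 and Nr0b2 had 4 mismatches at best, and 56.4% of promoters hold a window within 4 mismatches. The Nr1h4 window, chr10:89506609-89506908, lies inside the gene's span and not at its outer end. Fgf15 had no promoter in the annotation used and was not searched. Matches of this kind describe the letters in the window and show no binding.

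The deletion was visible in the arrays. Pcyt1a averaged 7.46 ± 0.25 in knockouts and 9.39 ± 0.17 in controls (log2 intensity, SD, n = 5 per group), with limma's log2 fold change at -1.93 and its adjusted p at 9.58e-05. All values below are log2 of the authors' RMA intensities, fold changes are knockout minus control, and p-values come from limma with Benjamini-Hochberg adjustment over all 22180 genes. Across those genes 6 were called at an adjusted p under 0.05, 1 higher and 5 lower, which is 0.0271% (0.00451% higher and 0.0225% lower), and the median log2 fold change was -0.01. Enterocyte markers were high on every array, with a list mean of 12.46 to 12.78 in knockouts and 12.58 to 12.80 in controls. Markers of 2 epithelial cell types differed between the groups without overlap. The tuft cell list averaged 6.15 to 6.38 in knockouts and 6.49 to 6.65 in controls, and the enteroendocrine list 6.66 to 6.93 in knockouts and 6.94 to 7.24 in controls. Other lists overlapped, also where their means differed more, as for endothelial markers (6.73 in knockouts and 6.24 in controls) and crypt stem cell markers (7.82 and 7.44). Single arrays stood apart in markers of other cells. Smooth muscle markers averaged 7.90 on knockout 1, and among controls 8.51 on array 9 and 9.71 on array 7, while all other arrays lay between 6.26 and 6.87. Control 8 had a hepatocyte list mean of 7.22, against 5.41 to 6.00 on the other arrays, and 8 of the 10 hepatocyte genes were highest there, with Alb (albumin) at 10.41. B and plasma cell markers averaged 7.19 on control 8 and 6.73 on control 9, against 5.50 to 5.92 elsewhere. Paneth cell markers averaged 9.48 on knockout 2, 9.26 on control 6 and 9.94 on control 8, below the 10.83 to 11.76 of the other arrays.

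No difference between knockouts and controls was detected for any of the 7 measured genes of the bile acid circuit. The limma fit called 0 of 7, against 0.0271% of all genes, the smallest adjusted p among them was 0.440 (Nr1h4), and 0 of 7 reached an unadjusted p under 0.05, where 13.9% of all genes did. In 0 of 7 did the groups fail to overlap, against 2.6% of all genes. The fold changes were positive for 4 genes and negative for 3, with a median of 0.10. The precision differed widely between them. The 95% interval of the fold ran from 0.531 to 2.20 for Slc10a2 and from 0.570 to 2.38 for Fabp6. Sizeable changes either way were therefore not detectable for these ileal genes. Slc10a2, Fabp6, Fgf15 and Gpbar1 had mean log2 intensities of 5.33, 5.26, 5.41 and 5.71, below the median of 5.81 over all genes. Slc51a, Nr1h4 and Nr0b2 were above that median. Whether the lower probe sets read above background was not tested.

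**Figure D1:**
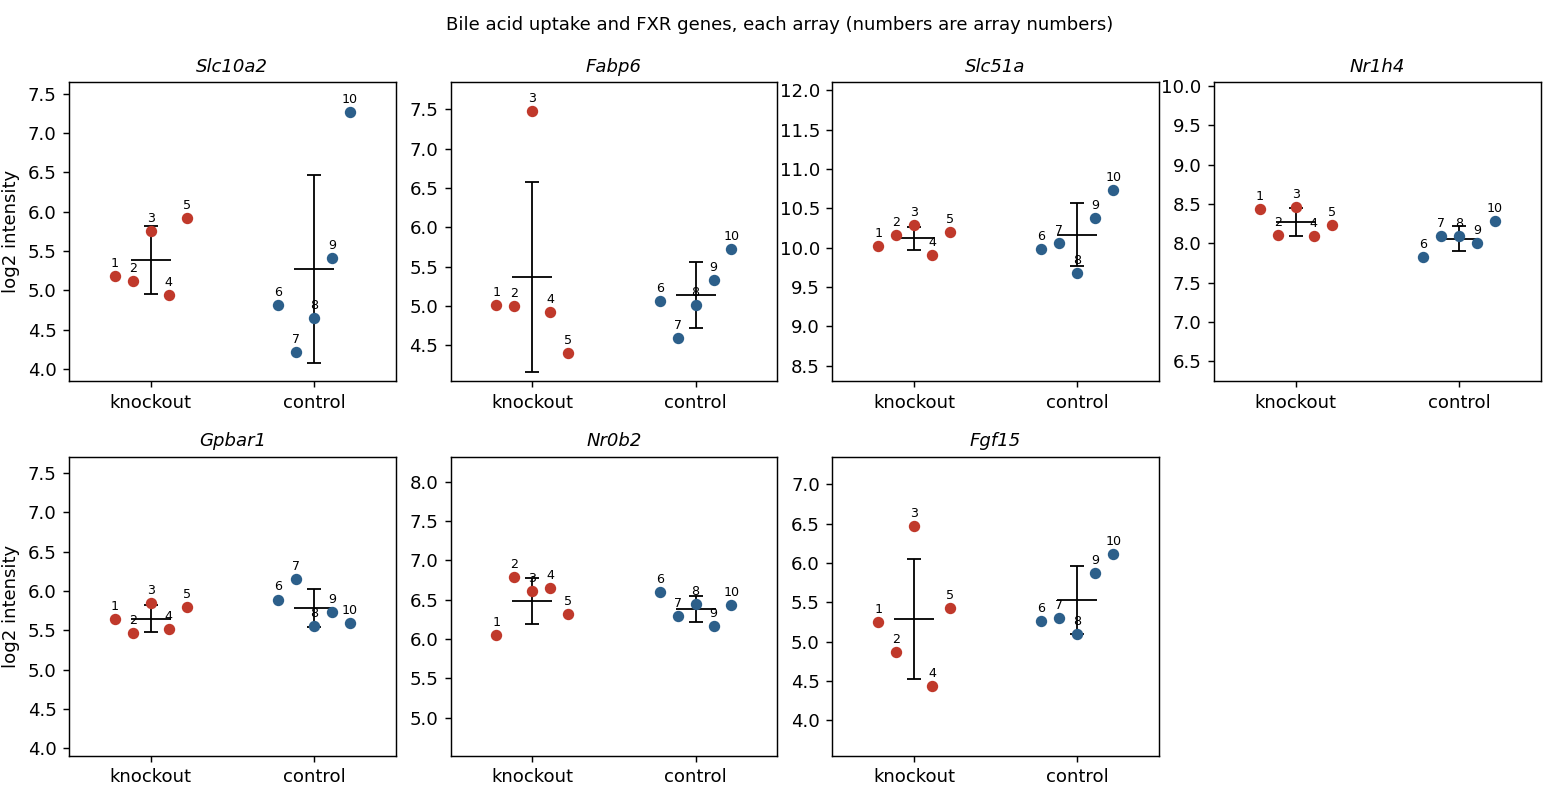
Log2 intensity (vertical axes) of the 7 measured genes on each array, with knockouts left of controls; points are single arrays, and the horizontal bar and error bar are the group mean and SD (n = 5 each). The groups overlap for all 7 genes, and the isolated points are control 10 for Slc10a2 at 7.27 and knockout 3 for Fabp6 at 7.48.

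Slc10a2, the sodium-dependent bile acid carrier of the ileal brush border (chr8:5083219-5105287), was at 5.18, 5.12, 5.76, 4.94 and 5.92 in knockouts 1 to 5, against 4.81, 4.22, 4.65, 5.41 and 7.27 in controls 6 to 10. The highest and the lowest arrays of all 10 were both controls, so the knockouts lay wholly inside the control range. Knockouts averaged 5.38 ± 0.43 and controls 5.27 ± 1.20 (SD, n = 5 per group). The log2 fold change was 0.11 with a 95% interval of -0.91 to 1.14 and an adjusted p of 0.940, and the exact permutation test gave p = 0.881. On the linear scale that is 1.08-fold, with bounds of 0.531 and 2.20. Control 10 was the far point: without it the log2 fold change was 0.61 (unadjusted p = 0.0357 and adjusted p = 0.362 with limma).

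Fabp6, the ileal bile acid binding protein (chr11:43596040-43601562), was at 5.02, 5.00, 7.48, 4.92 and 4.41 in knockouts, against 5.06, 4.60, 5.01, 5.33 and 5.73 in controls. Knockout 3 stood far above the rest, and the other 4 knockouts lay at or below 5.02. Group means were 5.37 ± 1.21 in knockouts and 5.15 ± 0.42 in controls (SD, n = 5 per group). The log2 fold change of 0.22 had a 95% interval of -0.81 to 1.25 and an adjusted p of 0.874 with limma. Without knockout 3 it was -0.31, with an adjusted p of 0.611, so 1 array sets its sign. The array that was highest for Fabp6 was not the one that was highest for Slc10a2.

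Slc51a (OSTα), the basolateral export subunit (chr16:32475578-32487879), was at 10.02, 10.16, 10.29, 9.91 and 10.20 in knockouts, against 9.98, 10.06, 9.67, 10.38 and 10.73 in controls. Again the knockouts lay inside the control range, and control 10 was the highest array. The means were 10.12 ± 0.15 in knockouts and 10.16 ± 0.40 in controls (SD, n = 5 per group), with a log2 fold change of -0.05, a 95% interval of -0.42 to 0.33 and an adjusted p of 0.930 with limma. On the linear scale the bounds are 0.746-fold and 1.25-fold. Its sign turned without control 10, where the log2 fold change was 0.09.

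For the other export subunit, Slc51b (OSTβ), the probe set shared with Rasl12 was at 11.39, 10.98, 11.59, 10.84 and 11.10 in knockouts, against 10.88, 11.22, 10.68, 11.00 and 11.28 in controls. The groups overlapped, with means of 11.18 in knockouts and 11.01 in controls and a difference of 0.17. Rasl12, a small GTPase family gene, had a probe set of its own, with means of 4.93 in knockouts and 4.99 in controls. How much of the shared signal belongs to either gene was not tested.

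Nr1h4 encodes FXR, the nuclear receptor for bile acids (chr10:89454234-89533645), and came closest to a difference among these genes. It was at 8.44, 8.10, 8.46, 8.09 and 8.23 in knockouts, against 7.83, 8.09, 8.09, 8.00 and 8.28 in controls. All 5 knockouts were at or above 8.09, and 4 of the 5 controls were at or below that value, so the groups touch and overlap. Knockouts averaged 8.26 ± 0.18 and controls 8.06 ± 0.16 (SD, n = 5 per group). The log2 fold change was 0.21 with a 95% interval of -0.04 to 0.45, an adjusted p of 0.440 with limma and an exact permutation p of 0.111. That corresponds to 1.15-fold with bounds of 0.976 and 1.36. The sign held when each array in turn was left out, over a range of 0.15 to 0.26.

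Gpbar1, the cell surface bile acid receptor TGR5 (chr1:74278600-74279589), was at 5.64, 5.46, 5.84, 5.51 and 5.79 in knockouts, against 5.89, 6.15, 5.55, 5.73 and 5.59 in controls. Its highest array, control 7, is the one richest in smooth muscle markers. Control 9 and knockout 1, also rich in those markers, were at 5.73 and 5.64. Pearson's r of Gpbar1 with the smooth muscle score was 0.595 over all arrays and -0.074 without controls 7 and 9. The means were 5.65 ± 0.17 in knockouts and 5.78 ± 0.25 in controls (SD, n = 5 per group), and the log2 fold change of -0.13 had a 95% interval of -0.41 to 0.14 and an adjusted p of 0.683 with limma. Without control 7 it was -0.04, and with the smooth muscle score as a covariate it was -0.08 (adjusted p = 0.776 with limma).

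Nr0b2 encodes SHP, a receptor partner that lacks a DNA-binding domain and represses other nuclear receptors (chr4:133553376-133556686). It was at 6.05, 6.78, 6.61, 6.65 and 6.32 in knockouts, against 6.59, 6.29, 6.44, 6.16 and 6.43 in controls. Both the highest and the lowest arrays were knockouts here, and every control lay between them. With means of 6.48 ± 0.29 in knockouts and 6.38 ± 0.16 in controls (SD, n = 5 per group), the log2 fold change was 0.10, its 95% interval -0.21 to 0.41 and its adjusted p 0.795 with limma. It was 0.03 without knockout 2, 0.21 without knockout 1, 0.04 without control 9 and 0.26 with a score of proximal gut markers as a covariate.

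Fgf15, the hormone through which the ileum signals to the liver (chr7:144896532-144900953), had 2 probe sets. The one with the higher mean, used in the fit, was at 5.25, 4.87, 6.47, 4.43 and 5.43 in knockouts, against 5.26, 5.30, 5.10, 5.87 and 6.11 in controls. Knockout 3 was the highest array and knockout 4 the lowest, so the knockouts spanned the whole range. Knockouts averaged 5.29 ± 0.76 and controls 5.53 ± 0.44 (SD, n = 5 per group), and the log2 fold change of -0.24 had a 95% interval of -0.96 to 0.48 and an adjusted p of 0.792 with limma. Without knockout 3 it was -0.53 and without knockout 4 it was -0.02. The second probe set stayed within 4.93 to 5.36 in knockouts and 5.01 to 5.26 in controls, with a difference of 0.04 and with 5.35 on knockout 3. The mean of both probe sets gave a log2 fold change of -0.10.

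**Figure D2:**
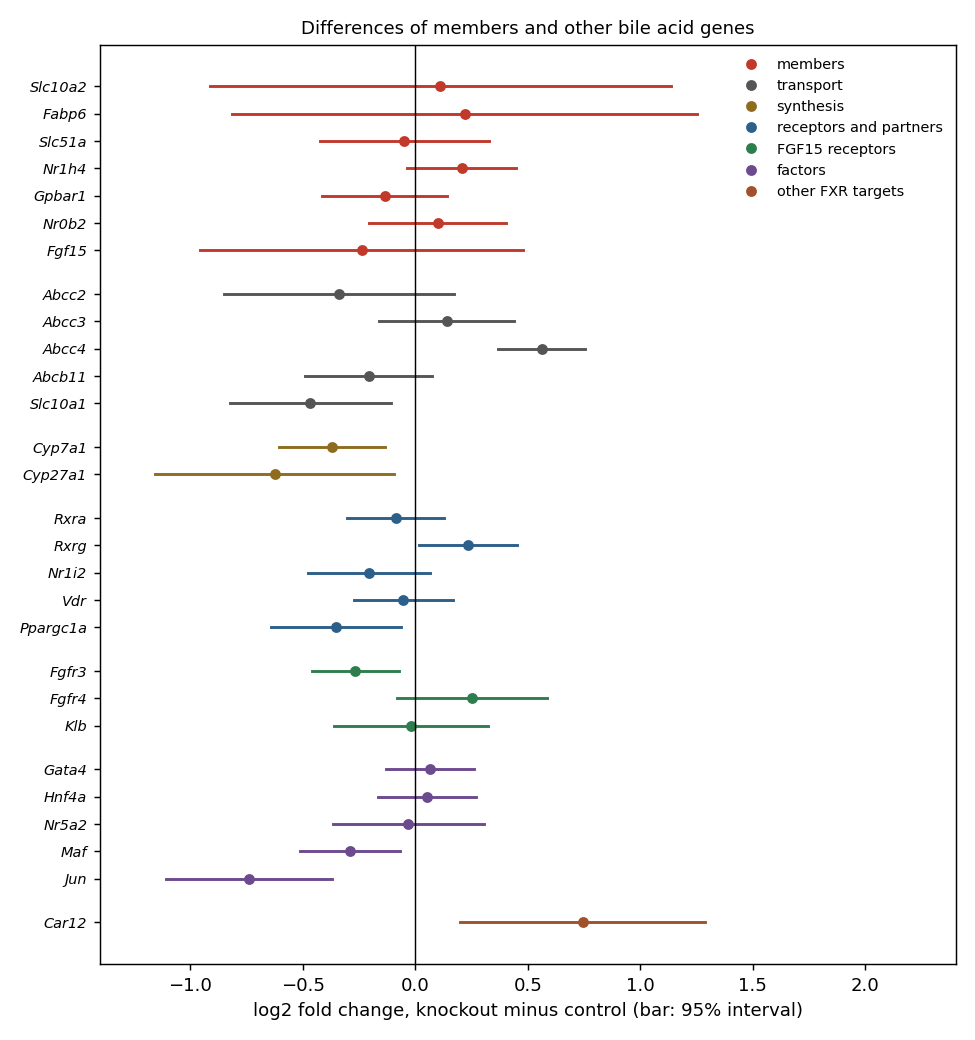
Log2 fold change (horizontal axis, knockout minus control) of the 7 measured members (red) and of other bile acid genes named in the text (other colours, by role), with bars for the 95% interval from limma (n = 5 per group). The intervals of all 7 members cross 0. Those of Slc10a2 (-0.91 to 1.14) and Fabp6 (-0.81 to 1.25) are wide, that of Nr1h4 (-0.04 to 0.45) lies mostly above 0, and Abcc4 stands clear of 0 at 0.56 although its adjusted p was 0.0728.

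The genes typical of the ileum were among the most variable on these arrays. Slc10a2 ranged over 3.05 log2 units across the 10 arrays, or 8.28-fold, and Fabp6 over 3.07, or 8.40-fold, with a residual SD of 0.90 for each gene after the group means were removed. Only 0.564% of all genes had a larger residual SD than Slc10a2, and 0.555% had a larger one than Fabp6. Among genes within 0.5 of their mean level the shares were 0.357% and 0.397%. On the probe set used in the fit, Fgf15 ranged over 2.04 log2 units with a residual SD of 0.62, exceeded by 1.49% of genes. Its second probe set stayed within 4.93 to 5.36, so the wide range was not seen there. The receptors and SHP were steadier. Nr1h4 had a residual SD of 0.17, Gpbar1 0.21 and Nr0b2 0.24, against a median of 0.19 over all genes, and Slc51a lay between at 0.31.

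Control 10 and knockout 3 held the highest reading of 5 of the 7 genes. Slc10a2 and Slc51a peaked on control 10, and Fabp6, Nr1h4 and Fgf15 on knockout 3. These 2 arrays differed from each other: control 10 was 1.94 above the 10-array mean for Slc10a2 and 0.47 above it for Fabp6, while knockout 3 was 0.43 above it for Slc10a2 and 2.22 above it for Fabp6. Leaving out both arrays, an alternative chosen after the values were seen, gave log2 fold changes of 0.52 for Slc10a2, -0.16 for Fabp6 and -0.39 for Fgf15, with adjusted p-values of 0.556, 0.787 and 0.600 with limma.

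**Figure D3:**
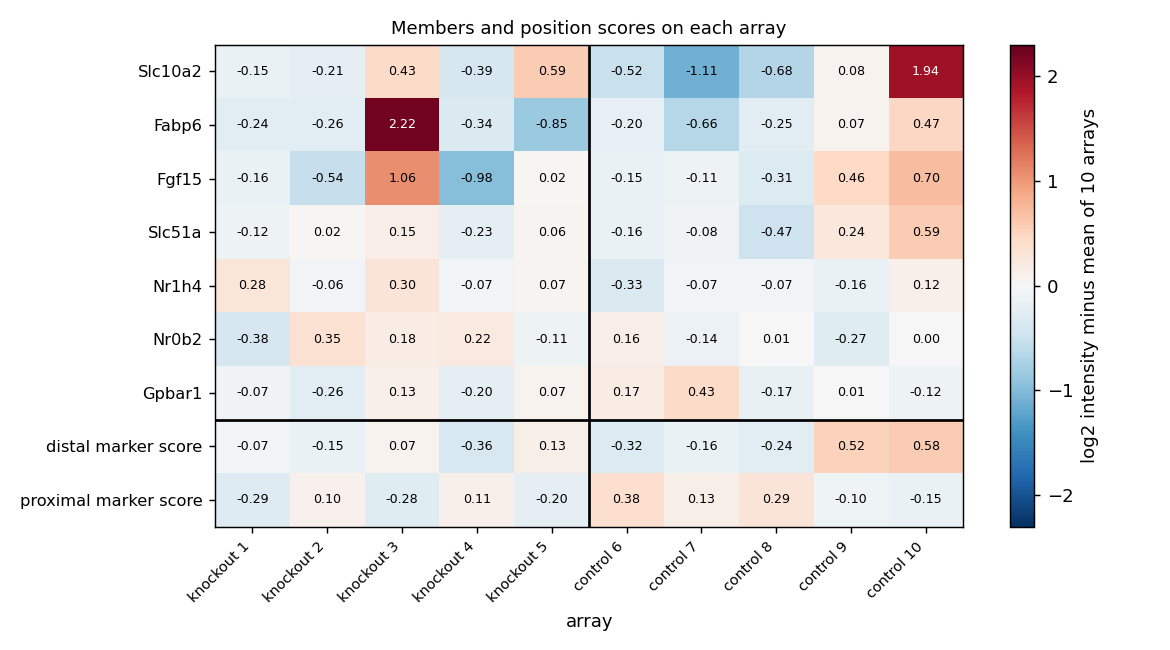
Log2 intensity minus the mean of the 10 arrays (colour and printed value) for the 7 measured genes and 2 marker scores in rows, with knockouts left of controls in columns. The largest values are 2.22 for Fabp6 on knockout 3 and 1.94 for Slc10a2 on control 10; the distal marker score is highest on controls 10 and 9.

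**Figure D4:**
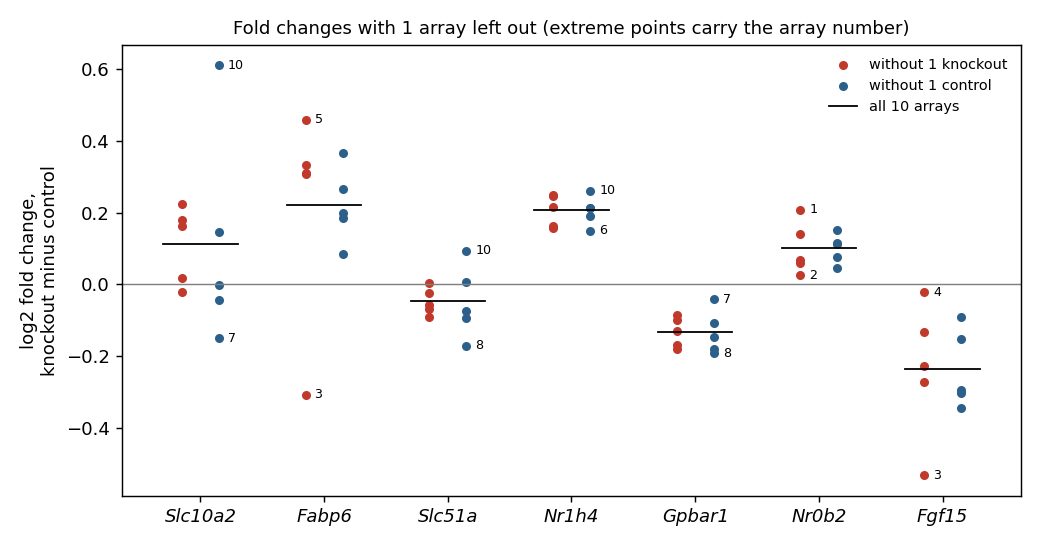
Log2 fold change (vertical axis, knockout minus control) of the 7 measured genes with each array left out in turn; red points lack 1 knockout, blue points lack 1 control, and black lines show the value from all 10 arrays. The widest movements come from control 10 for Slc10a2 (0.61 without it) and knockout 3 for Fabp6 (-0.31 without it).

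Some of these genes moved together from array to array. Among the 21 pairs, Slc10a2 and Slc51a had Pearson's r = 0.841 and Spearman's rho = 0.794 over the 10 arrays (permutation p = 0.00395 for r and 0.0092 for rho, adjusted p = 0.0829 and 0.0966). As a description over 5 arrays each, r was 0.811 within knockouts and 0.859 within controls, and without controls 10 and 7 it was 0.798. Slc51a and Fgf15 had r = 0.703 and rho = 0.806 (permutation p = 0.0238 for r, adjusted p = 0.167), with r = 0.769 without controls 10 and 8. Fabp6 and Fgf15 had r = 0.731 and rho = 0.564 (permutation p = 0.0119 for r, adjusted p = 0.125), but r was 0.123 without knockout 3 and control 10, so that relation rests on those arrays. None of the 21 pairs passed 0.05 after adjustment. The Fgf15 values in these pairs come from the probe set used in the fit, and its steadier second probe set was not correlated.

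Position along the gut was read from marker lists that hold none of the members. The distal list had 10 measured genes of 12, of which 4 are gut hormones, and the proximal list had 14, of which 4 are hormones as well (Cck, Ghrl, Gip and Sct). These proximal hormones and the distal hormones Gcg, Nts and Pyy are also on the enteroendocrine list. Distal scores were 9.29, 9.21, 9.44, 9.00 and 9.49 in knockouts, against 9.04, 9.21, 9.13, 9.89 and 9.95 in controls, with means of 9.29 ± 0.20 in knockouts and 9.44 ± 0.44 in controls (SD, n = 5 per group). Of the distal log2 fold changes, 5 were positive and 5 negative. The distal marker Nts, neurotensin of the lower small intestine, was at 8.28, 7.66, 8.50, 7.19 and 8.85 in knockouts. In controls it was at 7.57, 8.36, 7.84, 10.13 and 9.99, so controls 9 and 10 were its highest arrays. The distal marker Tmigd1 was at 8.31, 6.95, 8.52, 6.65 and 8.34 in knockouts, against 6.46, 6.03, 6.14, 8.05 and 8.73 in controls. Log2 fold changes were 0.67 for Tmigd1, and -0.68 for Nts, -0.58 for Pyy, -0.26 for Gcg and 0.07 for Insl5 among the distal hormones. Proximal scores were 8.36, 8.75, 8.37, 8.77 and 8.45 in knockouts, against 9.04, 8.79, 8.95, 8.55 and 8.51 in controls. Onecut2, a transcription factor of the proximal gut, was at 6.98, 8.22, 6.38, 8.33 and 7.27 in knockouts, against 8.90, 8.22, 8.94, 6.63 and 6.48 in controls, and so was low where Nts was high in the controls. Of the 3 distal and 3 proximal markers with the smallest p, Cubn (the ileal receptor for the vitamin B12 carrier) had a log2 fold change of -0.91, Lypd8 0.27 and Naprt -0.22, while Gip (an incretin hormone) was at -0.82, Lct (lactase) at -0.45 and Sct (secretin) at -0.26. Their adjusted p-values with limma were 0.147, 0.245, 0.380, 0.0728, 0.182 and 0.335 in that order.

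Of the 7 members, Slc51a had the highest correlation with the distal score. Over the 10 arrays r was 0.877 and rho 0.915, with a permutation p of 0.00038 for r and an adjusted p of 0.0133 over the 35 relations tested between members and scores. Within the groups r was 0.836 in knockouts and 0.897 in controls, and it was 0.714 without controls 10 and 9. For Slc10a2 the distal score gave r = 0.780 and rho = 0.842, with an adjusted permutation p of 0.0647 for r and 0.0471 for rho; r was 0.932 within knockouts, 0.812 within controls and 0.748 without controls 10 and 9. Fgf15 had r = 0.741 and rho = 0.770 with an adjusted permutation p of 0.101 for r, on the probe set used in the fit. That probe set read 5.87 and 6.11 on controls 9 and 10, where the second one read 5.01 and 5.19. Fabp6 had r = 0.303 over all 10 arrays, with r = 0.295 within knockouts and 0.796 within controls.

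**Figure D5:**
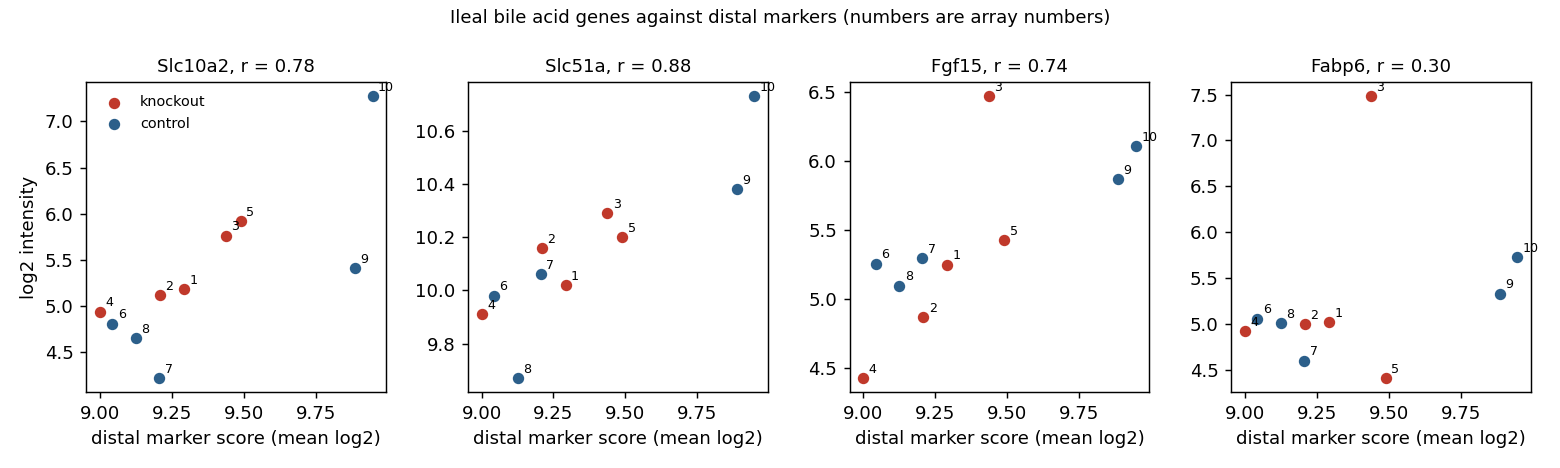
Log2 intensity of members (vertical axes) against the distal marker score (horizontal axis, mean log2 intensity of 10 genes), with 1 point per array and knockouts and controls in separate colours. Slc51a rises with the score (r = 0.877), as does Slc10a2 (r = 0.780), while Fabp6 has r = 0.303 and knockout 3 far above the other arrays.

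Nr1h4 ran against the proximal score, with r = -0.843 and rho = -0.841 over the 10 arrays (permutation p = 0.00222 for r, adjusted p = 0.0388). Within knockouts r was -0.936, within controls -0.654, and without controls 6 and 8 it was -0.798. Nr1h4 also had r = -0.790 and rho = -0.497 with the enterocyte score (adjusted permutation p = 0.0647 for r and 0.447 for rho), and that r was -0.546 without knockout 3 and control 6. The proximal score itself averaged 8.54 ± 0.20 in knockouts and 8.77 ± 0.23 in controls (SD, n = 5 per group). Of its 14 genes, 11 had negative and 3 had positive log2 fold changes. The negative ones include Lct (-0.45) and Onecut2 (-0.40), which are not hormones. The 4 hormone genes of the list were all lower in knockouts on average. Their log2 fold changes were -0.44 for Cck, -0.44 for Ghrl, -0.82 for Gip and -0.26 for Sct. The enteroendocrine list mean was 6.66 to 6.93 in knockouts and 6.94 to 7.24 in controls. That list holds the same 4 genes, so its lower mean is not a separate observation of them. With the proximal score as a covariate, an alternative chosen after the values were seen, the log2 fold change of Nr1h4 was 0.07 (adjusted p = 0.828 with limma), that of Fgf15 was -0.75 (adjusted p = 0.263) and that of Slc10a2 was -0.50 (adjusted p = 0.687). With the distal score as a covariate it was 0.25 for Nr1h4, -0.03 for Fgf15 and 0.45 for Slc10a2, with adjusted p-values of 0.296, 0.968 and 0.489. The part of the stretch of gut sampled was not tested beyond these fits, and that of enteroendocrine markers was not tested.

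The genes whose pattern over the 10 arrays was most like each member's, by Pearson's r among 22179 other genes, are given as a description. For Slc51a they were Slc44a1 (r = 0.947), a choline transporter, and Vnn1 (r = 0.934), a pantetheinase. For Slc10a2 they were 2310057N15Rik (r = 0.974), with a mean log2 intensity of only 2.17, and Abcd4 (r = 0.948), a lysosomal transporter of cobalamin. Nr1h4 was most like Dsel (r = 0.953) and Plagl2 (r = 0.945). Fgf15 was most like Ttc39a (r = 0.945) and Neurl2 (r = 0.933). Nr0b2 was most like Unc93a (r = 0.936) and Lipm (r = 0.926), the latter with a mean log2 intensity of 3.87. Gpbar1 was most like Ppil6 (r = 0.924) and Adam15 (r = 0.922). For Fabp6 they were Olfr853 (r = 0.958) and Vmn2r25 (r = 0.954), an olfactory and a vomeronasal receptor with mean log2 intensities of 3.27 and 2.27; both were highest on knockout 3, as Fabp6 was.

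Beyond these members, 64 other genes of bile acid transport, synthesis, FXR partners, FGF15 signalling, Slc10a2 control and intestinal FXR response were listed, and 58 were measured. Of these 0 were called by limma at an adjusted p under 0.05, 20 fold changes were positive and 38 negative, and the median was -0.06, against -0.01 over all genes. At an unadjusted p under 0.05, 5 were higher and 8 lower, together 22.4% of the 58. Of all genes 8.29% were higher and 5.56% lower, together 13.9%. The groups did not overlap for 2 of the 58 (Abcc4 and Fgfr3), where 2.6% of all genes did not. The 6 listed genes without a single-symbol probe set were not analysed here.

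Among the 13 genes of the transporter list, 6 fold changes were positive and 7 negative. The list includes Abcb4, a phosphatidylcholine exporter, and the enzyme Slc27a5, which is counted again among the synthesis genes below. Abcc4 (MRP4), a basolateral exporter of conjugates, was at 6.44, 6.22, 6.46, 6.18 and 6.44 in knockouts, against 5.68, 5.89, 5.75, 5.76 and 5.85 in controls. Every knockout was above every control. Its log2 fold change of 0.56 had an unadjusted p of 3.73e-05 and an adjusted p of 0.0728 with limma, short of the threshold. It passed when only genes with a mean of at least 6 were tested (adjusted p = 0.0388), with an offset of 16 added (0.0461) or with the distal score as a covariate (0.0435). In all it passed in 5 of 25 alternatives, and its adjusted p was 0.271 without knockout 1, 0.252 without knockout 3 and 0.338 without knockout 1, control 7 and control 9. The log2 fold change stayed between 0.45 and 0.60 in those 25. Abcc2 (MRP2) of the apical membrane had a log2 fold change of -0.34 (adjusted p = 0.556), Abcc3 (MRP3) of the basolateral membrane 0.14 (0.694) and Abcb11, the bile salt export pump, -0.21 (0.511). Slc10a1, the hepatocyte carrier, averaged 4.62 ± 0.10 in knockouts and 5.09 ± 0.40 in controls (SD, n = 5 per group), with a log2 fold change of -0.47 and an adjusted p of 0.237 with limma. It was highest on control 8, the array richest in hepatocyte markers, and without that array the log2 fold change was -0.31.

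Of the 11 synthesis genes, 3 fold changes were positive and 8 negative. Cyp27a1, which starts the acidic route of synthesis, averaged 9.31 ± 0.57 in knockouts and 9.94 ± 0.29 in controls (SD, n = 5 per group), a log2 fold change of -0.62 with an adjusted p of 0.283 with limma. It was -0.41 without knockout 1 and -0.38 with the proximal score as a covariate. Cyp7a1, the liver enzyme that FGF15 lowers, averaged 3.16 in knockouts and 3.53 in controls, with a log2 fold change of -0.37 and an adjusted p of 0.182 with limma; 4 knockouts lay between 3.09 and 3.14 and the fifth at 3.32, inside the control range of 3.20 to 3.74. It was highest on control 8, the array rich in hepatocyte markers, and the log2 fold change was -0.32 without that array, -0.24 without knockout 2, control 6 and control 8, and -0.15 with an offset of 16.

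Among 13 measured receptor partners, 2 fold changes were positive and 11 negative, and the fold changes of Rxra (the partner of FXR; -0.09), Vdr (the vitamin D receptor, -0.05) and Nr1i2 (the xenobiotic receptor PXR, -0.21) had adjusted p-values of 0.742, 0.861 and 0.493 with limma. The co-activator Ppargc1a was at -0.35 (adjusted p = 0.268) and Rxrg at 0.23 (adjusted p = 0.324). Of the 5 measured FGF15 pathway genes, Fgfr3 did not overlap between the groups, with means of 6.57 in knockouts and 6.84 in controls and an adjusted p of 0.211. The receptor Fgfr4 had a log2 fold change of 0.25 (adjusted p = 0.496), and its co-receptor Klb -0.02 (0.971).

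The 13 measured regulators of Slc10a2 gave 3 positive and 10 negative fold changes, and Vdr among them is also counted above. Gata4, which keeps ileal genes off in the jejunum, was at 0.07 (adjusted p = 0.785 with limma), and the activators Hnf4a and Nr5a2 were at 0.05 and -0.03 (adjusted p = 0.850 and 0.952). The transcription factor Maf was at -0.29 (adjusted p = 0.233). Jun, an immediate-early gene, averaged 8.85 ± 0.23 in knockouts and 9.59 ± 0.35 in controls (SD, n = 5 per group), a log2 fold change of -0.74 with an adjusted p of 0.128.

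Among 9 measured genes listed as intestinal FXR response genes, 5 fold changes were positive and 4 negative, with a median of 0.16. The negative ones include Cyp7a1, Abcb11 and Sult2a1, whose mean log2 intensities were only 3.35, 3.79 and 2.13. Cyp7a1, Abcb11 and, among the positive ones, Abcb4 (0.16) are also counted above, and Cyp7a1 is lowered by this circuit. These counts therefore give no direction for an intestinal FXR response. Car12, a membrane carbonic anhydrase, averaged 7.05 ± 0.47 in knockouts and 6.31 ± 0.46 in controls (SD, n = 5 per group), with a log2 fold change of 0.74 and an adjusted p of 0.215 with limma. The Paneth marker score ranged from 9.48 to 11.76 in knockouts and from 9.26 to 11.27 in controls, and with it as a covariate Car12 had a smaller log2 fold change of 0.53 with an adjusted p of 0.0368, and Abcc4 had 0.52 with 0.0246. With the proximal score as a covariate Car12 was at 0.37 (adjusted p = 0.476 with limma). Knockout 2, low in Paneth markers, was also the lowest knockout for Car12 at 6.23, and without it the log2 fold change was 0.95 (adjusted p = 0.0435 with limma). Calls rose across the whole array in both settings. The Paneth covariate gave 129 genes called and the fit without knockout 2 gave 452, against 6 in the fit as reported. The part of the Paneth score in the Car12 and Abcc4 values was not otherwise tested.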

How the data were processed

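Total RNA of 10 jejunal samples (400 ng each, as the labels state) went onto 1 Affymetrix whole-transcript array per sample. RMA by the authors, run with Expression Console 1.4.1.46 as named in the submitters' processing notes, gave the deposited intensities. These were linear, from 1.88 to 15500.2; their log2 lay on 0.01 steps (tolerance 0.001), and log2 was taken here because the plan had assumed log2 values. Precision is limited by how many arrays there are. Detection values were not used here.

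Of 34472 probe sets, 23521 had 1 gene symbol, 1814 several and 9137 none; 23328 matched RefSeq by gene ID. A gene with several probe sets (1082 genes) was represented by the one with the highest mean, which left 22180. The test was limma 3.58.1 (R 4.3.3), two-sided, on log2 intensities, with Benjamini-Hochberg adjustment over all genes, and was tested on simulated data. Exact permutation tests (two-sided, smallest p 0.00794) were run in R. Permutation tests of correlations (100000 resamples, two-sided) used numpy 2.4.6 in Python 3.11.15, with ranks from scipy 1.17.1. The 21 pairs and 35 relations are fewer than planned because Slc51b had no probe set of its own.

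The members and the gene lists were chosen with earlier results of these data known. Named genes are the members, Pcyt1a and pathway genes picked by role. Also named are the 2 genes of each pathway list and 3 of each position list with the smallest p. The 2 genes most like each member and the top gene of marker lists were named too. Nts, Tmigd1, Pyy, Gcg, Insl5, Onecut2 and Alb were chosen after their values were seen. No batch, date or litter is given in the labels. Alternatives covered array scaling, an offset of 16, filters at mean 5 and 6, limma settings, marker scores as covariates and left-out arrays. Some planned items are not reported here.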

Additional observations from a re-analysis of the deposited data

Results flagged for a closer look

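In 5 of 78 groups of 5 arrays, taken over 39 genes, probe sets and marker scores, the highest or lowest array stood apart from the others by Dixon's criterion; chance flags about 1 in 20 groups. Fabp6 was 7.48 on knockout 3, while the other knockouts lay between 4.41 and 5.02. Car12 was 6.23 on knockout 2, against 7.15 to 7.42 on the other knockouts, and Jun was 9.26 on the same array, against 8.68 to 8.83. Cyp7a1 was 3.32 on knockout 5, against 3.09 to 3.14. Rxrg was 4.14 on control 6, against 4.44 to 4.55 on the other controls. Slc10a2 on control 10 did not meet the criterion, although it was the highest of all 10 arrays.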

How the results depend on the processing

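None of the 7 members was called under any alternative that tested it, and Nr1h4, Gpbar1, Nr0b2 and Fgf15 kept their sign in those; the mean filter of 6 left 3 members and did not test Slc10a2, Fabp6, Gpbar1 or Fgf15. The genes called over the whole array, 6 in the fit as reported, numbered 2 after median centring, 2 after quantile normalization, 10 with an offset of 16, 20 with the distal score as a covariate, 35 with the proximal score, 129 with the Paneth score, 2 without knockout 1, control 7 and control 9, 69 without knockout 2, control 6 and control 8, and 2 without knockout 3 and control 10. Leaving out 1 array gave 2 to 452 calls, the last without knockout 2, so calls across the array depend strongly on single arrays. Among the other bile acid genes, 0 as reported, Abcc4 was the 1 call with a mean filter of 6, an offset of 16 or the distal covariate, the Paneth covariate gave 2 (Abcc4 and Car12), and leaving out 1 array gave 0 to 3 (Abcc4, Car12 and Jun without knockout 2). The log2 fold change of Slc10a2 was -0.022 with the Paneth covariate, -0.050 with the smooth muscle covariate, -0.50 with the proximal covariate, -0.14 without knockout 1, control 7 and control 9, -0.18 without knockout 2, control 6 and control 8, and -0.15 to 0.61 with 1 array left out. Fabp6 was -0.15 with the proximal covariate, -0.16 without knockout 3 and control 10, and -0.31 to 0.46 with 1 array left out. Slc51a was 0.077 with the distal covariate, 0.013 without knockout 1, control 7 and control 9, 0.050 without knockout 3 and control 10, and -0.17 to 0.094 with 1 array left out. Klb was 0.0060 after median centring, 0.013 after quantile normalization, 0.061 with the distal covariate, 0.088 without knockout 3 and control 10, and -0.15 to 0.094 with 1 array left out. Nr5a2 was 0.051 with the distal covariate, 0.023 with the smooth muscle covariate, 0.060 without knockout 1, control 7 and control 9, and -0.12 to 0.055 with 1 array left out. Vdr was 0.015 with the Paneth and 0.072 with the proximal covariate, Abcc2 0.071 and Hnf4a -0.073 with the proximal covariate. The cause was not tested. The proximal covariate and the fits without knockout 3 and control 10 were chosen after seeing the data. No paired analysis was possible because the groups share no replicate numbers.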
